A study of Homo sapiens with 4 samples.

Results

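The protein-coding genes of human chromosome 8 were followed in order along the chromosome in FLO-1LM and FLO-1 parental cells. Members were selected on their place and their counts, as the protein-coding genes placed on chromosome 8 of GRCh37 with at least 10 counts in each of the 4 count files, with ESRP1 and GRHL2 left out by rule. The files held 63677 genes, of which 675 were protein-coding genes of chromosome 8, and 398 of those met the minimum. The short arm, 8p, held 142 of them, from ZNF596 to HGSNAT, and the long arm, 8q, held 256, from SPIDR to C8orf33. FLO-1 is an established cell line of esophageal adenocarcinoma. FLO-1LM is a single subline raised from it by repeated passage of liver metastases through immunodeficient NSG mice. The labels name no engineered allele or drug for either line, and both were grown to 80% confluency and collected 24 hours after the medium was renewed. Total RNA from 2 samples of each line was sequenced. The sources do not say whether the 2 samples of a line were separate cultures, so the p-values measure only the spread between these samples, which may be technical.

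Chromosome 8 is among the chromosomes most often unbalanced in carcinomas of the esophagus and stomach. The short arm is frequently lost and carries several candidate tumor suppressor genes, while the long arm is frequently gained, most often around MYC, which encodes a transcription factor that drives growth and ribosome production. A gain or loss of a chromosome segment tends to move the RNA of many neighboring genes a little in 1 direction. RNA libraries measure transcript levels and not DNA copies, and copy number was not measured here.

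The libraries held between 19060310 and 25920336 counts, and 17143 genes passed the filter for low counts. Levels are given as CPM, the count of a gene relative to its library's TMM-scaled total. Fold changes are log2 values of FLO-1LM over parental from edgeR, so a positive value is a higher level in FLO-1LM. No sequencing batch is labelled, and a batch that followed the line cannot be told apart from the line. The epithelial markers KRT8, KRT18, KRT19 and CDH1 were detected, while EPCAM was near the floor, with 3 to 12 counts per library. The summed level of these 5 markers was 479 to 488 CPM, here of the library total, in FLO-1LM and 856 to 863 in parental cells. Most of the sum came from KRT8 and KRT18. The summed level of 5 fibroblast markers was 9.97 to 13.0, nearly all from COL1A1, with COL3A1 and DCN at 0. The 4 hepatocyte markers summed to 13.3 to 18.3, nearly all from SERPINA1, with ALB and TTR at 0. The 4 leukocyte markers summed to under 1 in every library and included PTPRC at 0, and so did the endothelial markers VWF and CDH5. In bulk RNA, fewer cells of a kind and less RNA per cell cannot be told apart.

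Of the other chromosome 8 genes, 186 had no count in any library and 91 had counts but fell under the minimum in at least 1 library. ESRP1 and GRHL2, the 2 genes left out by rule, were themselves under the minimum. The lowest members were PHYHIP on 8p, with counts of 10 and 31 in FLO-1LM and 24 and 14 in parental cells, and MCMDC2 on 8q, with 16 and 18 against 10 and 11. Just outside, with a lowest count of 9, were C8orf49 and NAT1 on 8p and PSCA and LY6H on 8q. All 398 members also passed edgeR's own filter. A further 14 genes under the minimum were tested, and 0 of these had an adjusted p below 0.05.

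Both arms stood slightly above the rest of the genome in FLO-1LM. The comparison set was the 11237 protein-coding genes of the other autosomes that met the same minimum, whose median log2 fold change was 0.0057 with quartiles at -0.10 and 0.11. The median of the 8p members was 0.062, which is 0.056 above the other autosomes, or 3.94% on the linear scale. The median of the 8q members was 0.074, which is 0.068 above them, or 4.85%. A fold change above 0 was found for 85 of the 142 8p members (59.9%) and for 170 of the 256 8q members (66.4%), beside 51.6% on the other autosomes. Both FLO-1LM libraries lay above both parental ones for 48 8p members (33.8%) and 93 8q members (36.3%), while this held for 22.2% of genes on the other autosomes. The opposite separation was found for 22 members of 8p (15.5%) and 32 of 8q (12.5%), beside 20.8%. Members of an arm share libraries and neighbors, so these counts are descriptions and were given no test. Most single genes differed little, since 281 of the 398 members lay within 0.2 of 0 and the median standard error of a member was 0.11.

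Chromosome 8 was not the only chromosome displaced in this way. Among 39 autosome arms, 8q had rank 5 and 8p rank 6 by median log2 fold change, behind 9p (0.12), 18p (0.11), 14q (0.10) and 10p (0.081). At the other end lay 1p, with a median of -0.055. By whole chromosome, chromosome 8 came second of 22, with 0.069 against 0.10 for chromosome 14.

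The displacement was also read library by library, as the median over an arm's members of the deviation of log2 CPM from each gene's mean, relative to the other autosomes. For 8p it was 0.022 and 0.042 in the FLO-1LM libraries and -0.022 and -0.033 in the parental ones. The 4 values did not overlap between lines, and the pooled SD between libraries of a line was 0.011. For 8q it was 0.061 and 0.015 in FLO-1LM and -0.031 and -0.028 in parental cells, with a pooled SD of 0.023. The 2 FLO-1LM libraries thus stood farther apart on 8q than the parental ones did, and the difference between the lines was 0.068. A two-sided exact permutation test over the 4 libraries could reach no p under 0.333 for such a value. The difference between the arms, 8q minus 8p, was 0.013 and smaller than its spread, with a pooled SD of 0.034, and its sign turned when replicate 1 of FLO-1LM was left out (-0.030).

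The displacement was not even along either arm. On 8q the members were close to the other autosomes from 50 to 80 Mb and somewhat above them from 80 to 100 Mb. The highest medians of 8q lay toward its end. In stretches of 10 Mb, the 8q medians were 0.0080, -0.0079 and 0.0095 from 50 to 80 Mb, 0.079 and 0.051 from 80 to 100 Mb, and -0.0037 from 100 to 110 Mb. They were then 0.13 over 10 genes, 0.040 over 27 genes that include MYC, 0.15 over 7 genes, and 0.16 over the last 75 genes. On 8p the highest stretch was 10 to 20 Mb, with a median of 0.13 over 21 genes, of which 16 were above 0. In 8 of these 21 genes (38.1%) both FLO-1LM libraries lay above both parental libraries, and in 0 genes below, beside 22.2% and 20.8% on the other autosomes. The stretch was named for its high median, so these shares are a description and not separate support. Its library values were uneven, at 0.010 and 0.097 in FLO-1LM and -0.058 and -0.050 in parental cells. The adjoining stretch from 20 to 30 Mb, the most gene-rich of the arm, had a median of -0.018 over 57 genes, of which 26 were above 0.

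A running median over 15 neighboring members followed the arms in finer steps. On 8q it ranged from -0.059 at NDUFB9 to 0.25 at TSNARE1, near the start of the last stretch. On 8p it ranged from -0.11 at CCAR2 to 0.19 at TRIM35, both within the 20 to 30 Mb stretch. Its 8p peak was thus not in the stretch with the highest median, and it moved with the window. With 9 members the peak was at CLU (0.22), and with 31 members at SOX7 (0.10). The fold changes of adjacent members were only weakly alike. Spearman's rho was 0.084 and Pearson's r -0.037 over 397 pairs of neighbors, and rho on the other autosomes ran from 0.015 to 0.17. These are correlations across genes that share the same 4 libraries, and genes are not independent replicates.

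The last stretch of 8q held 75 members that start at 140 Mb or beyond, from TRAPPC9 to C8orf33. It was picked after its values were seen and is given as a description. The median log2 fold change was 0.16, with quartiles at 0.068 and 0.27, which is 0.15 above the other autosomes, or 10.9%. Values above 0 were found for 63 of the 75 genes (84.0%). Both FLO-1LM libraries lay above both parental libraries for 43 genes (57.3%) and below them for 4 (5.33%), beside 22.2% and 20.8% on the other autosomes. An unadjusted edgeR p below 0.05 was found for 25 of the 75 (33.3%), beside 11.3% on the other autosomes. Without this stretch the other 181 members of 8q had a median of 0.040, which is 0.034 above the other autosomes.

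Among 199 stretches of 10 Mb with at least 20 genes on the other autosomes, 1 had a median at or above that of distal 8q, the 80 to 90 Mb stretch of chromosome 11 with 0.16 over 20 genes. Of the 72 stretches with at least 50 genes, 0 reached the distal 8q value. Just below it came a stretch of chromosome 14, with 0.15 over 47 genes, and another of chromosome 11, with 0.15 over 21 genes. In these, 87.2% and 90.5% of genes were above 0. By that share, 3 of the 199 stretches were at or above distal 8q.

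Each FLO-1LM library was above each parental library on distal 8q, but by unequal amounts. Replicate 1 of FLO-1LM exceeded the parental libraries by a median log2 difference of 0.23 and 0.14, with 62 and 61 of 75 genes higher. Replicate 2 exceeded them by 0.18 and 0.068, with 62 and 50 genes higher. Libraries of the same line differed as well, by -0.046 for FLO-1LM replicate 2 against 1 and by 0.064 for parental replicate 2 against 1. The library values were 0.11 and 0.035 in FLO-1LM and -0.12 and -0.044 in parental cells, with a pooled SD of 0.054. The distal value was between 0.12 and 0.19 when each library was left out in turn.

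The transcripts of distal 8q are rich in G and C, with a median GC content of 63.4% against 49.1% on the other autosomes, and 46 of the 75 genes fell in the highest of 10 equal bins of autosomal genes by GC. The libraries differed by GC content. In that bin the library values of the other autosomes were 0.034 and -0.034 in FLO-1LM and -0.043 and 0.063 in parental cells. When each gene was set against the autosomal median of its own GC bin, the distal 8q values were 0.095 and 0.063 in FLO-1LM and -0.086 and -0.085 in parental cells. The libraries of a line then lay closer together, and the difference between the lines was 0.16, as large as without the adjustment. With the same adjustment the other 181 members of 8q had values of 0.0040 and 0.00029 in FLO-1LM and 0.00024 and 0.016 in parental cells, a difference of -0.0058. The 8p values were 0.027 and 0.040 in FLO-1LM and -0.025 and -0.024 in parental cells.

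The genes listed for distal 8q24 encode products of many kinds. Of the 20 listed genes, 18 were members, with a median log2 fold change of 0.16, and 17 of the 18 were above 0. The FLO-1LM libraries were both above the parental ones for 14 of them (77.8%) and both below for 0, beside 22.2% and 20.8% on the other autosomes. These 18 are part of the 75 genes of the stretch picked after its values were seen, where the shares were 57.3% and 5.33%. They are therefore not separate support. The test was passed by 1 of the 18, GFUS, beside 1.58% of the genes on the other autosomes. PUF60, a splicing factor, was at 154 and 135 CPM in FLO-1LM and 116 and 132 in parental cells, a log2 fold change of 0.22 (SE 0.088). HSF1, the main transcription factor of the heat shock response, was at 91.4 and 84.4 against 78.5 and 80.6 CPM, or 0.14 (SE 0.085). In each of these genes the lines did not overlap, yet the adjusted p was 0.28 and 0.54. RECQL4, a DNA helicase, had a value of 0.17 (SE 0.094). ZC3H3, which acts in export of polyadenylated mRNA, had the highest value of the list, 0.37 (SE 0.12), with 38.9 and 31.6 CPM against 26.5 and 28.2. PLEC, the cytoskeletal linker plectin, was the most abundant 8q member after RPL8 and PABPC1, and its libraries overlapped, with 956 and 817 CPM against 866 and 825. The interferon-induced surface protein LY6E was at 160 and 155 CPM against 139 and 167, and its libraries overlapped too. PSCA was under the minimum, and LYPD2 had no count.

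Gene by gene, 3 of the 398 members had an adjusted p below 0.05, and all of them lie on 8q. The cut-off was passed by 2.23% of all genes tested and by 1.58% of the other autosomes' genes, so the share of members called was not above the background. GFUS was higher in FLO-1LM and PARP10 and SBSPON were lower. On the other autosomes 0.427% of genes were called higher and 1.16% lower. With library totals in place of TMM scaling the split was 0 higher and 3 lower. When either parental library was left out 0 members passed, in fits that take their spread from the FLO-1LM pair alone.

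PARP10, an enzyme that attaches single ADP-ribose units to proteins and was first found as a binding partner of MYC, had the smallest p. It lies on the minus strand of chromosome 8 from 145051321 to 145086940. Its level was 54.4 and 54.2 CPM in FLO-1LM and 72.4 and 75.3 CPM in parental cells, and the lines did not overlap. The log2 fold change was -0.44 (SE 0.088, edgeR adjusted p = 0.0093), a level 1.36-fold lower in FLO-1LM. PARP10 was thus lower inside the stretch where most genes were higher. Its exons overlap those of GRINA on the opposite strand over 324 bases, and the setting by which strand was counted is not given in the sources used here.

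SBSPON, which encodes a secreted protein with somatomedin B and thrombospondin domains, lies on the minus strand from 73976778 to 74036323. Its counts were 51 and 83 in FLO-1LM and 137 and 131 in parental cells, or 2.29 and 3.22 against 6.21 and 6.83 CPM. Both FLO-1LM libraries were below both parental ones. The log2 fold change was -1.23 (SE 0.27, edgeR adjusted p = 0.018), or 2.35-fold lower.

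GFUS, which makes GDP-fucose, the donor for fucose on glycans, lies on the minus strand from 144694788 to 144700218. It was at 86.6 and 82.5 CPM in FLO-1LM and 65.1 and 67.4 CPM in parental cells, without overlap. The log2 fold change was 0.35 (SE 0.086, edgeR adjusted p = 0.034), or 1.28-fold higher. With library totals in place of TMM scaling it was 0.32 and missed the cut-off.

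MYC lies on the plus strand from 128747680 to 128755197. It was at 91.2 and 95.7 CPM in FLO-1LM, a mean of 93.4 ± 3.15 (SD, n = 2), and at 68.8 and 80.6 CPM in parental cells, a mean of 74.7 ± 8.39 (SD, n = 2). The lines did not overlap, but the difference missed the cut-off, with a log2 fold change of 0.32 (SE 0.091, edgeR adjusted p = 0.079). It passed when genes of low counts were kept in the test (edgeR adjusted p = 0.022). Without each library in turn its value ran from 0.21 to 0.44.

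EIF3E, a subunit of the translation initiation factor eIF3, stood just outside the cut-off as well. It was at 327 and 355 CPM in FLO-1LM and 287 and 283 in parental cells, with a log2 fold change of 0.26 (SE 0.073, edgeR adjusted p = 0.079), and DESeq2 called it (adjusted p = 0.043). The zinc finger gene ZNF34 had the highest log2 fold change of any member, 1.12 (SE 0.31, edgeR adjusted p = 0.079), with counts of 98 and 122 against 37 and 49.

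MYC had the highest fold change of the genes listed for its neighborhood. Of 20 such genes, 19 were members, 14 of them above 0, with a median of 0.064. The test was passed by 0 of the 19, beside 1.58% of genes on the other autosomes. In 8 of the 19 (42.1%) both FLO-1LM libraries lay above both parental ones, and in 1 (5.26%) below. These shares were 22.2% and 20.8% on the other autosomes. ATAD2, a chromatin protein known as a MYC cofactor, was at 262 and 244 CPM in FLO-1LM and 237 and 242 in parental cells, a log2 fold change of 0.077 (SE 0.074). SQLE, an enzyme of cholesterol synthesis, had a value of -0.059 (SE 0.090) and overlapping libraries. MTSS1, an actin-binding protein, had a value of -0.36 (SE 0.15), with 15.7 and 13.6 CPM against 20.1 and 17.3, and was the only gene of the list with both FLO-1LM libraries below both parental ones. The focal adhesion kinase gene PTK2 and CYRIB, a regulator of RAC1, had values of 0.14 and 0.21 without overlap. LRATD2 was at -0.48 (SE 0.27), and its FLO-1LM libraries differed among themselves, with 4.40 and 9.28 CPM.

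The genes of 8q21 to 8q23 that are often amplified in carcinomas were near 0. Of 14 listed, 13 were members, with a median of 0.040, 8 of them above 0 and 0 called. The libraries of the lines were separated upward for 1 (7.69%), EIF3E, and downward for 1 (7.69%), the cytochrome oxidase subunit COX6C. On the other autosomes these shares were 22.2% and 20.8%, and 1.58% of genes were called. COX6C had a log2 fold change of -0.17 (SE 0.089). YWHAZ, a 14-3-3 protein, was at 683 and 599 CPM in FLO-1LM and 665 and 630 in parental cells, a value of -0.014 (SE 0.075). MTDH and TPD52, known as drivers of breast tumors with 8q gain, had values of 0.051 and 0.058.

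On 8p, candidate tumor suppressors were spread on both sides of 0. Of 16 listed, 13 were members, 7 above and 6 below 0, with a median of 0.070. The test was passed by 0 of the 13, beside 1.58% of genes on the other autosomes. In 4 of the 13 (30.8%) both FLO-1LM libraries lay above both parental ones, and in 2 (15.4%) below. These shares were 22.2% and 20.8% on the other autosomes. BNIP3L, which directs mitochondria to autophagy, had the smallest p of the list, with 163 and 151 CPM in FLO-1LM and 128 and 135 in parental cells, a log2 fold change of 0.25 (SE 0.079, edgeR adjusted p = 0.14). PINX1, a telomerase inhibitor, was at 9.47 and 8.08 against 5.99 and 7.09 CPM, or 0.42 (SE 0.21). DLC1, a GTPase-activating protein for RHOA, was at 2.92 and 4.70 CPM against 3.95 and 4.28, or -0.10 (SE 0.29), and its libraries overlapped. ARHGEF10 and RHOBTB2 were at -0.10 and -0.11, with both FLO-1LM libraries below the parental ones. TUSC3 and CSMD1 had no count in any library, and LZTS1 was under the minimum.

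The 4 receptors for the death ligand TRAIL lie in a row on 8p, and all were members, with 1 above and 3 below 0. The test was passed by 0 of the 4, beside 1.58% of genes on the other autosomes. TNFRSF10B, which signals death, was at 126 and 151 CPM in FLO-1LM and 145 and 140 in parental cells, a log2 fold change of -0.044 (SE 0.087). TNFRSF10A, the other signalling receptor, had a value of -0.13 (SE 0.16). The decoy receptors TNFRSF10C and TNFRSF10D had values of -0.24 (SE 0.39) and 0.26 (SE 0.20), the former at about 2 CPM.

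GATA4, a transcription factor gene of 8p23 that is amplified in part of esophageal adenocarcinomas, was expressed in both lines at similar levels, with 37.1 and 36.98 CPM in FLO-1LM and 36.4 and 41.6 in parental cells. Its log2 fold change was -0.074 (SE 0.11). Of the 7 genes listed around it 6 were members, with a median of 0.082 and 0 called, beside 1.58% on the other autosomes. The protease CTSB, the second most abundant 8p member by CPM, was at 537 and 555 CPM against 513 and 533, a value of 0.063 (SE 0.069). The squalene synthase gene FDFT1 was at 0.036 (SE 0.075).

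Of 22 genes listed for the amplified region at 8p11 to 8p12, 21 were members, with a median of 0.084, 15 above 0 and 6 below. The test was passed by 0 of the 21, beside 1.58% of genes on the other autosomes. FGFR1, a growth factor receptor of this region, had 0 counts in all 4 libraries. EIF4EBP1, an inhibitor of cap-dependent translation, had the highest value, 0.29 (SE 0.11), with 55.3 and 55.6 CPM against 39.1 and 51.7. The lowest was BRF2, an initiation factor of RNA polymerase III, with 11.8 and 10.8 CPM against 13.0 and 15.9, or -0.35 (SE 0.17). ZNF703, a transcriptional corepressor, was at -0.33 (SE 0.21). NSD3, a histone methyltransferase, was at -0.026 (SE 0.089) with overlapping libraries.

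Of the lists that run across both arms, only that of DNA replication and repair had every member above 0. All 18 listed genes that lie on chromosome 8 were members, with a median of 0.12. Their transcripts were low in GC, with a median of 38.7%. On the other autosomes the lowest GC bin and the next had medians of 0.044 and 0.040, against 0.0057 for all genes there. The list values are given without GC adjustment. RECQL4 of this list lies in the distal 8q stretch that was picked after its values were seen. Both FLO-1LM libraries lay above both parental ones for 11 of 18 (61.1%) and below for 0, beside 22.2% and 20.8% on the other autosomes. Of the 18, 0 passed the test, beside 1.58% there. The mitotic kinase gene PBK was at 101 and 94.5 CPM in FLO-1LM and 82.6 and 81.4 in parental cells, a log2 fold change of 0.26 (SE 0.083). POLB, the polymerase of base excision repair, was at 29.1 and 27.8 CPM against 23.7 and 23.1, or 0.28 (SE 0.12). ESCO2, which acetylates cohesin, was at 0.28 (SE 0.12), and NBN, a subunit of the complex that senses double-strand breaks, at 0.19 (SE 0.087). At the low end PRKDC, the catalytic subunit of the kinase of end joining, was at 0.012 (SE 0.076) with 616 and 653 CPM against 674 and 584. Leaving out a parental library moved PRKDC to 0.12 or to -0.087.

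All 13 genes listed for ribosome and translation were members, with a median of 0.15, 11 above 0 and 2 below. Of the 13, 0 were called, beside 1.58% of genes on the other autosomes. Both FLO-1LM libraries were above both parental ones for 9 of them (69.2%) and below for 0, beside 22.2% and 20.8% on the other autosomes. RPL8, a protein of the large ribosomal subunit, was the most abundant member, with 1238 and 1200 CPM in FLO-1LM and 986 and 1148 in parental cells, a log2 fold change of 0.19 (SE 0.074). AGO2, which carries out cleavage guided by small RNAs, was at 30.0 and 30.0 CPM against 21.6 and 23.7, or 0.41 (SE 0.12, edgeR adjusted p = 0.10). PABPC1, the poly(A) binding protein, was at -0.00082 (SE 0.069), and RPL30 at -0.067 (SE 0.080). RPL8, RPL7, RPL30, RPS20, EEF1D, PABPC1 and EIF3E have processed copies elsewhere in the genome, and how reads with several matches were counted is not given in the sources used here, so these values are uncertain.

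The immune genes of the chromosome were in part silent. Of 9 listed, 5 were members, with a median of 0.043, overlapping libraries for all 5 and 0 called. On the other autosomes 22.2% of genes were separated upward, 20.8% downward and 1.58% were called, so such counts over 5 genes say little. RIPK2, a kinase downstream of NOD receptors, was at 39.2 and 32.4 CPM in FLO-1LM and 34.8 and 35.3 in parental cells. IDO2 and DEFB1 had no count, and IDO1 and LY96 had at most 2 counts in a library.

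The largest fold changes on either arm belonged mainly to genes of low level. The 5 highest of 8p were PURG (0.85), POMK (0.48), PINX1 (0.42), CLN8 (0.42) and TRIM35 (0.33), and the 5 lowest were PLAT (-0.62), MYOM2 (-0.61), DUSP4 (-0.40), BRF2 (-0.35) and PLEKHA2 (-0.35). For PLAT, the tissue plasminogen activator, the level was 0.63 and 0.51 CPM in FLO-1LM and 0.86 and 0.89 in parental cells, and the standard error was 0.64. After ZNF34 the highest of 8q were CA13 (0.87), SDC2 (0.83), VXN (0.82) and ZFHX4 (0.59). SDC2, a heparan sulfate proteoglycan of the cell surface, was at 1.93 and 1.55 CPM against 0.91 and 1.04, with a standard error of 0.50. The lowest of 8q were GPT (-1.30), SBSPON, CA2 (-1.04), LRATD2 (-0.48) and ZNF517 (-0.45). The neighboring carbonic anhydrase genes CA13 and CA2 stood on opposite sides of 0, CA13 at 5.21 and 4.08 CPM against 2.45 and 2.61 and CA2 at 0.72 and 0.51 against 1.36 and 1.15. GPT, alanine aminotransferase, was at 1.03 and 0.54 CPM against 1.996 and 1.88 (SE 0.53, edgeR adjusted p = 0.30).

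Abundant members had small differences. The zinc transporter SLC39A14 was at 797 and 839 CPM in FLO-1LM and 933 and 899 in parental cells, a log2 fold change of -0.16 (SE 0.067, edgeR adjusted p = 0.31). CLU, the secreted chaperone clusterin, was at 575 and 513 CPM against 450 and 483, or 0.22 (SE 0.075, edgeR adjusted p = 0.18). Per kilobase of transcript, the highest levels of 8p were those of SLC39A14 (186 CPM per kb), CLU (180) and CTSB (128), and the highest of 8q were those of RPL8 (1068), RPL30 (474) and PABPC1 (298).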

How the data were processed

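The authors prepared directional libraries from total RNA, trimmed adapters (Trimmomatic 0.30, after bcl2fastq 2.17, per the submitters' processing notes), mapped reads to GRCh37 and deposited raw counts for each Ensembl gene, in separate files for the 4 libraries. Which aligner and counter were used, and with which strand option, is not given in the sources used here. Groups were taken from the cell line label of each sample.

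From these counts, gene places and biotypes were taken from a GENCODE annotation mapped to GRCh37, later than the one used for counting, and 8012 genes of the files had no place in it. Older gene symbols were matched through RefSeq synonyms. The arm limit was the longest run of unread bases of chromosome 8. The lines were compared over all genes by edgeR 4.0.16 (R 4.3.3, filterByExpr, TMM, glmQLFit, glmQLFTest) with Benjamini-Hochberg adjustment over all genes tested. The SE is the absolute log2 fold change over the square root of F. Library values used log2 CPM with a prior count of 2. The study used limma voom, run here as an alternative. Code was tested on simulated data.

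Members and lists were chosen with earlier results of these data known. Named genes were those called, the 5 highest and 5 lowest per arm, the 3 most abundant, the arm ends, those at the count minimum, those at the extremes of the running median, and the lists. HUS1B, put on the repair list, is not on chromosome 8. In the replication list 18 genes remained. PECAM1 was not matched. For 5 members, exons overlap a gene whose counts were at least 10-fold theirs. Alternatives were DESeq2 1.42.0, limma 3.58.1, other scaling, filters and count minimums, and each library left out. Depth was 19060310 to 25920336 counts per library, and the common coefficient of variation between libraries was 0.090.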

Additional observations from a re-analysis of the deposited data

How the results depend on the processing

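The arm values of 8p and 8q relative to the other autosomes, and that of distal 8q, stayed above 0 under every alternative run. Leaving out each library in turn gave 0.038 to 0.079 for 8p, 0.049 to 0.0995 for 8q and 0.12 to 0.19 for distal 8q. 8q minus 8p ran from -0.030 (without FLO-1LM replicate 1) to 0.062, and was -0.0067 for genes with at least 200 counts. The adjustments for GC content, length and level, and all alternatives for distal 8q, were chosen after seeing the data.

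The number of members called was 11 with no filter on low counts (8 higher, 3 lower), where 2.52% of the other autosomes' genes were called, and 0 to 27 with each library left out (19 and 27 without a FLO-1LM library, 0 without either parental library). On the other autosomes these fits called 4.97%, 4.48%, 0.481% and 0.623%. Each takes its spread from the only whole pair, and the lone library is assumed to vary like that pair. MYC was 0.32 with an adjusted p of 0.022 with no filter, and 0.21 to 0.44 with each library left out, past the cut-off without either FLO-1LM library.

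Of 139 named members not called, 13 were called in at least 1 of 10 alternative fits, and 55 named members changed sign in at least 1. With 2 libraries per line, differences of single genes below about 0.2 were within reach of the standard errors. No paired analysis was possible because the labels number no replicates (the numbers used here follow sample order and only name a library).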
